A study of Mus musculus with 6 samples.

Results

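NF-κB is a family of dimeric transcription factors that mast cells and other myeloid cells hold ready in the cytoplasm. The transcripts of 10 of its genes were followed here: the subunits *Nfkb1*, *Nfkb2*, *Rel*, *Rela* and *Relb*, the inhibitors *Nfkbia*, *Nfkbie* and *Nfkbiz*, the feedback regulator *Tnfaip3* and the kinase *Ikbkb*. They were chosen by gene symbol from the 17320 genes of the deposited table, and all 10 were found there and passed the filter on low values that left 13517 genes for testing. The study asked how loss of MCEMP1, a membrane protein linked to the SCF receptor KIT, changes gene expression in growing mast cells. Peritoneal cells (PC) of *Mcemp1*-/- mice (libraries labelled *Mcemp1*-/-, replicates 4, 5 and 6) and of wild-type mice (*Mcemp1*+/+, replicates 1, 2 and 3) were cultured for 9 days with SCF and IL-3 and sequenced as bulk mRNA. The *Mcemp1*-/- allele is a small frameshift deletion in exon 1 made with CRISPR-Cas9 in C57BL/6 mice, and it is present in every cell of the animal. Values of 3 libraries are given in the order of replicates 4, 5 and 6 for *Mcemp1*-/- PC and 1, 2 and 3 for *Mcemp1*+/+ PC. Both groups received both cytokines, the labels name no further stimulation, and the age and sex of the mice are not given in the labels.

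In resting cells, IκB proteins such as IκBα (*Nfkbia*) and IκBε (*Nfkbie*) hold dimers of RelA, c-Rel and p50 in the cytoplasm. The IKK complex, whose kinase IKKβ is encoded by *Ikbkb*, phosphorylates IκB and marks it for degradation, and the freed dimers enter the nucleus. Several genes that they induce switch the pathway off again, among them *Nfkbia* and *Tnfaip3*, which encodes the ubiquitin-editing enzyme A20. IκBζ (*Nfkbiz*) differs from the classical inhibitors in that it acts in the nucleus, where it assists the transcription of a set of secondary response genes including *Il6*. Much of the regulation of the pathway takes place on proteins, which RNA sequencing does not measure.

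The library labelled *Mcemp1*-/- replicate 6 stood apart from the other members of its group. *Mcemp1* itself had 0.201, 0.0849 and 4.23 normalized counts in *Mcemp1*-/- replicates 4, 5 and 6, against 9.80, 7.68 and 16.9 in *Mcemp1*+/+ replicates 1, 2 and 3. Reads outside the small deletion are still counted, so the transcript is a weak check of the label. The mast cell identity of the cultures was plain, since none of 14 mast cell markers was under 1 normalized count in any library, and *Cpa3*, the mast cell carboxypeptidase, was at 26702, 27818 and 14778 in *Mcemp1*-/- replicates 4, 5 and 6, against 14213 to 14788 in *Mcemp1*+/+ PC. The cultures of *Mcemp1*+/+ PC and the library labelled *Mcemp1*-/- replicate 6 also held transcripts of neutrophil precursors and macrophages that replicates 4 and 5 nearly lacked. *Xist*, which is transcribed in female cells, was at 1481 in the library labelled *Mcemp1*-/- replicate 6 and 1297 in *Mcemp1*+/+ replicate 3, and at most at 0.341 in the others. The column names of the table end in a number of the kind that marks a place in a sequencing sample sheet, and the numbers 4 and 5 each occur on 2 libraries (replicates 4 and 6, and replicates 5 and 2), so the libraries did not all share 1 numbering. Deposited totals ran from 932999 to 989051 on a scale close to CPM, and the read depth is not given in the sources used here. No source used here says that the libraries came from separate mice or cultures, so p-values reflect only how these libraries vary among themselves, and some of that may be technical.

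The levels of the 10 genes, divided by the length of their annotated exons so that genes can be compared, spanned a wide range in both groups. The highest mean in both groups was that of *Rela*, which encodes the main activating subunit, at 18.6 ± 2.03 normalized counts per kb of exon in *Mcemp1*-/- PC and 17.5 ± 0.815 in *Mcemp1*+/+ PC (SD, n = 3 each). In *Mcemp1*+/+ PC *Nfkbia* (14.3 ± 4.07 per kb), *Nfkbie* (13.3 ± 0.273) and *Nfkb1* (12.6 ± 0.412) followed, and each overlapped with its neighbour in this order. *Rel* (8.10 ± 0.400 per kb), *Nfkb2* (6.12 ± 0.682) and *Ikbkb* (4.28 ± 0.146) came next in *Mcemp1*+/+ PC, with no overlap between neighbours. The lowest were *Nfkbiz* (2.18 ± 0.552 per kb), *Tnfaip3* (1.71 ± 0.437) and *Relb* (1.43 ± 0.199), and these 3 overlapped. In *Mcemp1*-/- PC *Nfkbiz* reached 6.44 ± 1.17 per kb, above every library of *Ikbkb* (4.31 to 4.45), which it lay below in *Mcemp1*+/+ PC. Exon length here is the union over all annotated transcripts, which is at least as long as any single transcript. It is longest for *Ikbkb* (19078 bases) and *Nfkb1* (12061 bases), against 3072 bases for *Rela*, so the levels per kb of *Ikbkb* and *Nfkb1* are low estimates. The order of the genes therefore holds for this length only, the first place of *Rela* and the crossing of *Nfkbiz* and *Ikbkb* included. It could differ with the lengths of the transcripts that the cells express.

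**Figure D1:**
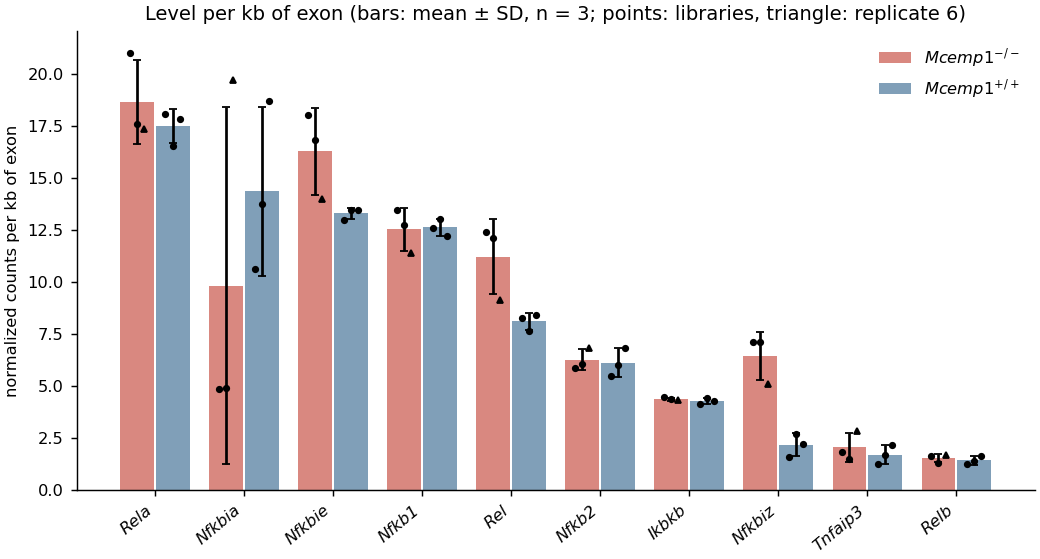
Level of each gene per kb of annotated exon (vertical axis, normalized counts per kb) in *Mcemp1*-/- PC and *Mcemp1*+/+ PC, as bars of the mean with the SD (n = 3 each), with each library as a point and replicate 6 as a triangle. With the union of annotated exons as length, *Rela* is highest in *Mcemp1*+/+ PC at 17.5 per kb, and the order depends on that length. *Nfkbiz* is the gene whose bars differ most in proportion, at 6.44 per kb in *Mcemp1*-/- PC against 2.18 per kb in *Mcemp1*+/+ PC.

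Of the 5 subunits, 4 overlapped between the groups, and *Rel* was highest in *Mcemp1*-/- replicates 4 and 5. *Rel* (chr11:23736847-23770970 on GRCm38, as are all positions given here, minus strand) encodes c-Rel, a subunit most abundant in blood cells. It had 92.4, 90.4 and 68.2 normalized counts in *Mcemp1*-/- replicates 4, 5 and 6, against 61.6, 57.1 and 62.8 in *Mcemp1*+/+ replicates 1, 2 and 3. Replicates 4 and 5 were well above the rest, and replicate 6 lay just above the highest *Mcemp1*+/+ library, so the groups did not overlap. The log2 fold change was 0.45 (standard error 0.13), and it did not pass over all genes (adjusted p = 0.15 from limma; exact permutation p = 0.1, the smallest that 3 libraries against 3 can give). Without the library labelled *Mcemp1*-/- replicate 6 it was 0.59 ± 0.064 (SE, limma adjusted p = 9.3e-04). That fit was chosen because earlier results of these same data showed this library apart from replicates 4 and 5. Its p-values, here and below, are therefore descriptive.

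*Nfkb1* (chr3:135584655-135691547, minus strand) encodes p105, the precursor of p50, and had the narrowest range of the subunits. It had 162, 154 and 138 normalized counts in *Mcemp1*-/- replicates 4, 5 and 6, against 152, 157 and 147 in *Mcemp1*+/+ replicates 1, 2 and 3. Replicate 6 was the lowest of all and replicate 4 the highest, and the groups overlapped (log2 fold change -0.012, standard error 0.077). *Rela* was at 64.5, 54.1 and 53.3 in *Mcemp1*-/- replicates 4, 5 and 6, against 55.5, 50.8 and 54.7 in *Mcemp1*+/+ PC, with replicate 4 alone above the others (log2 fold change 0.089, standard error 0.094). The subunits of the noncanonical pathway, which runs through p100 processing, were *Nfkb2*, at 27.0, 27.8 and 31.3 in *Mcemp1*-/- PC, against 25.2, 27.7 and 31.4 in *Mcemp1*+/+ PC, and *Relb*, at 6.34, 5.12 and 6.54 in *Mcemp1*-/- PC, against 4.79, 5.53 and 6.33 in *Mcemp1*+/+ PC. The log2 fold changes were 0.035 (standard error 0.11) and 0.10 (standard error 0.16), and within each group the library with *Xist* was the highest for both genes. Exons of *Nfkb2* share 531 bases with those of AC114539.1 and 299 bases with those of *Psd*, both on the other strand. Whether the counting used strand is not given in the sources used here. *Psd* was at most at 2.41 normalized counts, and AC114539.1 has no deposited value, so its level is not known.

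**Figure D2:**
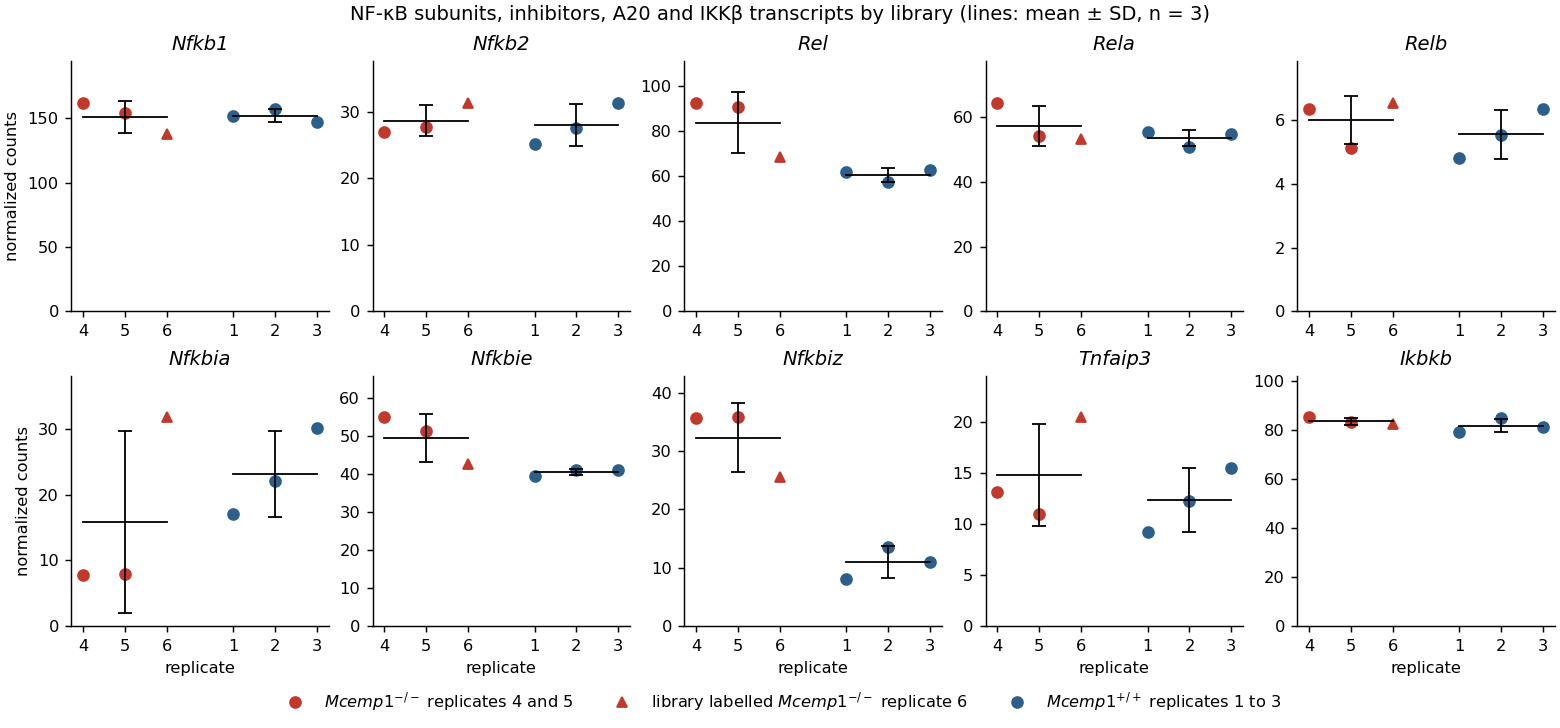
Normalized counts (vertical axes, each from 0) of the 10 genes in each library, with *Mcemp1*-/- replicates 4, 5 and 6 left of *Mcemp1*+/+ replicates 1, 2 and 3, and lines for the mean ± SD (n = 3). For *Nfkbiz* all 3 libraries labelled *Mcemp1*-/- (25.6 to 35.8) lie above *Mcemp1*+/+ PC (8.10 to 13.6), whereas for *Nfkbia* replicates 4 and 5 (7.83 and 7.87) lie below and replicate 6 (31.7) above.

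The inhibitors departed from each other. *Nfkbia* was low in 2 of the 3 libraries labelled *Mcemp1*-/-, *Nfkbie* lay slightly above *Mcemp1*+/+ PC, and *Nfkbiz* lay well above it in all 3. The promoters of *Nfkbia*, *Nfkbie* and *Rel* hold a sequence that matches the NF-κB consensus. They are shown because no annotated exon overlaps the stretch around the match, whatever the level of the gene. Stretches around the matches of *Nfkb2* and *Tnfaip3* overlap annotated exons and were left out. The stretches below are from RefSeq on GRCm38.p6, printed on the strand of the gene and upstream of its RefSeq start, with the match in capitals.
Nfkbia: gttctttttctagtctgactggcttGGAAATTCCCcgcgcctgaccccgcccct
Nfkbie: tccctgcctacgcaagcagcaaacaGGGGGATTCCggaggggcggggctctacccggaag
Rel: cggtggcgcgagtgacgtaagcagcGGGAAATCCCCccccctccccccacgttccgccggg
These lie at chr12:55492648-55492701 (minus strand), chr17:45555569-45555628 (plus strand) and chr11:23771026-23771086 (minus strand), where GENCODE vM21 has no exon.

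The first base of the match was 29 bases before the start in *Nfkbia*, 106 bases before it in *Nfkbie* and 92 bases before it in *Rel*. The search covered 250 bases before and 50 bases after each RefSeq start, on both strands. Of all 32851 such promoters 8.46% hold the consensus, and of their 27025 genes 9.55% hold it in 1 or more promoters. Of the 10 genes, 6 have a promoter in the table (*Nfkb2*, *Rel*, *Rela*, *Nfkbia*, *Nfkbie* and *Tnfaip3*), and all of these but *Rela* held a match. *Nfkb2* held 1 or more in each of its 3 promoters, with GGGAATTCCCC and GGGGCTTTCC in the first. *Tnfaip3* held GGGACACCCC and GGAAATCCCC in 1 of its 2 promoters. The AP-1 motif TGANTCA, present in 7.81% of all promoters and 8.97% of their genes, was in 1 promoter each of *Nfkbie*, *Tnfaip3* and *Nfkb2*. Such a match is a description of the letters, and binding was not measured.

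*Nfkbia* (chr12:55489410-55492647, minus strand) had 7.83, 7.87 and 31.7 normalized counts in *Mcemp1*-/- replicates 4, 5 and 6, against 17.1, 22.1 and 30.1 in *Mcemp1*+/+ replicates 1, 2 and 3. Replicates 4 and 5 were below every other library, the library labelled *Mcemp1*-/- replicate 6 was the highest of all, and the groups overlapped. The log2 fold change was -0.81 ± 0.57 (SE, limma adjusted p = 0.37) with all 6 libraries and -1.46 (standard error 0.22, adjusted p = 0.0036) without the library labelled *Mcemp1*-/- replicate 6. Replicates 4 and 5 thus averaged 0.340 times the *Mcemp1*+/+ mean, while replicate 6 was at 1.37 times that mean. Among the libraries without *Xist*, the difference of replicates 4 and 5 from *Mcemp1*+/+ replicates 1 and 2 was -1.26 on the log2 scale. Between the 2 libraries with *Xist*, replicate 6 and *Mcemp1*+/+ replicate 3, the difference was 0.076, with 1 library a side and therefore no test.

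*Nfkbie* (chr17:45555703-45563169, plus strand) had 54.9, 51.2 and 42.5 normalized counts in *Mcemp1*-/- replicates 4, 5 and 6, against 39.5, 41.0 and 41.0 in *Mcemp1*+/+ replicates 1, 2 and 3. The groups did not overlap, although replicate 6 was only 1.05 times the *Mcemp1*+/+ mean. The log2 fold change was 0.28 ± 0.11 (SE, limma adjusted p = 0.18), and 0.39 without the library labelled *Mcemp1*-/- replicate 6 (standard error 0.064, adjusted p = 0.0048).

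*Nfkbiz* (chr16:55811375-55838899, minus strand) had the largest log2 fold change of the 10 genes with all 6 libraries. It had 35.6, 35.8 and 25.6 normalized counts in *Mcemp1*-/- replicates 4, 5 and 6, against 8.10, 13.6 and 11.1 in *Mcemp1*+/+ replicates 1, 2 and 3. Every library labelled *Mcemp1*-/- was above every *Mcemp1*+/+ library, and here replicate 6 went with replicates 4 and 5, at 2.34 times the *Mcemp1*+/+ mean. The means were 32.3 ± 5.86 in *Mcemp1*-/- PC and 10.9 ± 2.77 in *Mcemp1*+/+ PC (SD, n = 3 each), a log2 fold change of 1.54 (standard error 0.23). It did not pass over all genes (adjusted p = 0.11 from limma, unadjusted p = 5.05e-04; exact permutation p = 0.1, the smallest possible). Without the library labelled *Mcemp1*-/- replicate 6 the log2 fold change was 1.69 ± 0.20 (SE, limma adjusted p = 0.0014). The difference was 1.72 between the libraries without *Xist* and 1.18 between the 2 libraries with it. The lowest library labelled *Mcemp1*-/- was 1.87 times the highest *Mcemp1*+/+ library, and of 13517 genes tested 27 (0.2%) had an upward gap at least as large. For *Rel* (1.09 times) and *Nfkbie* (1.04 times) the gaps were smaller, and 5.98% and 9.82% of genes had one at least as large. These gaps were looked up after the values were seen.

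*Tnfaip3* (chr10:19000910-19015657, minus strand), which encodes A20, had 13.1, 11.0 and 20.5 normalized counts in *Mcemp1*-/- replicates 4, 5 and 6, against 9.24, 12.3 and 15.6 in *Mcemp1*+/+ replicates 1, 2 and 3. The libraries with *Xist* were the highest of each group, and the groups overlapped (log2 fold change 0.24 ± 0.28, SE, limma adjusted p = 0.59). The mean of replicates 4 and 5 was 0.974 times that of *Mcemp1*+/+ PC, where for *Nfkbia* it was 0.340 times. *Ikbkb* (chr8:22659212-22706589, minus strand) was at 85.0, 83.1 and 82.3 in *Mcemp1*-/- replicates 4, 5 and 6, against 79.1, 84.6 and 81.3 in *Mcemp1*+/+ replicates 1, 2 and 3. The highest of the 6 libraries was 1.07 times the lowest, the narrowest range of the 10 genes (log2 fold change 0.031 ± 0.055, SE, limma adjusted p = 0.71).

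Over all 6 libraries, 0 of the 10 genes passed an adjusted p under 0.05 from limma, and 3 (*Rel*, *Nfkbie* and *Nfkbiz*) had an unadjusted p under 0.05. Of all genes tested, 0.074% passed with adjustment (0.0592% lower, 0.0148% higher) and 25.4% without (13.8% lower, 11.6% higher). The groups did not overlap for the same 3 genes, all with *Mcemp1*-/- PC above, where 29.5% of all genes tested did not overlap, 14.8% with *Mcemp1*-/- PC above and 14.7% with it below. Without the library labelled *Mcemp1*-/- replicate 6, *Rel*, *Nfkbie* and *Nfkbiz* were higher and *Nfkbia* was lower, 4 of 10, beside 41.8% of 13506 genes in that fit. Replicates 4 and 5 lay together outside the range of the other 4 libraries for these 4 genes, and for 58.1% of all genes. The median log2 fold change was 0.096 over the 10 genes and -0.0095 over all genes. The library labelled *Mcemp1*-/- replicate 6 was above the *Mcemp1*+/+ range for 6 of the 10 genes, below it for 1 (*Nfkb1*) and inside it for 3, where 27.9% of all genes were above and 29.9% below.

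**Figure D3:**
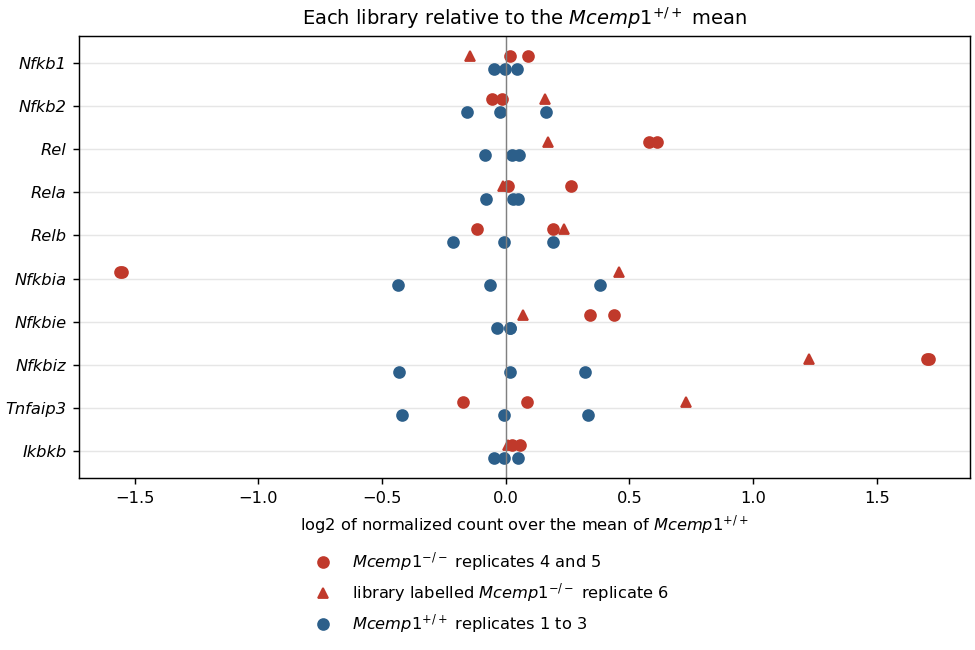
Log2 of the normalized count in each library over the *Mcemp1*+/+ mean (horizontal axis) for the 10 genes, with *Mcemp1*-/- libraries above *Mcemp1*+/+ libraries in each row. *Nfkbia* and *Nfkbiz* spread most, with replicates 4 and 5 at 0.340 and 3.27 times the *Mcemp1*+/+ mean before taking the log, and *Ikbkb* spreads least.

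Ratios between 2 of the genes within a library depend little on how libraries were scaled. The log2 ratio of *Nfkbia* to *Rela*, inhibitor to subunit, was -2.97, -2.71 and -0.74 in *Mcemp1*-/- replicates 4, 5 and 6, against -1.67, -1.18 and -0.85 in *Mcemp1*+/+ replicates 1, 2 and 3. Replicates 4 and 5 had the lowest ratios and replicate 6 the highest, a difference between group means of -0.90, and of -1.60 with replicates 4 and 5 alone. The log2 ratio of *Rel* to *Rela* was 0.52, 0.74 and 0.35 in *Mcemp1*-/- replicates 4, 5 and 6, against 0.15, 0.17 and 0.20 in *Mcemp1*+/+ PC, and here the groups did not overlap. For *Nfkb2* to *Nfkb1*, *Relb* to *Rela* and *Tnfaip3* to *Ikbkb* the differences were 0.047, 0.015 and 0.21, each smaller than the larger of the group SDs (0.23, 0.21 and 0.46). With all 6 libraries the difference for *Nfkbia* to *Rela*, -0.90, was likewise smaller in size than the larger of its group SDs (1.22).

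Markers of other cell types moved with some of these genes. The 12 neutrophil precursor markers summed to 483, 353 and 13309 normalized counts in *Mcemp1*-/- replicates 4, 5 and 6, against 8827 to 14685 in *Mcemp1*+/+ PC, and 4 and 8 of them were under 1 in replicates 4 and 5 and none in the other libraries. *Ctsg*, which mast cells also express, made up most of that remainder (436 and 346), while *Mpo*, the myeloperoxidase of these cells, was at 1.004 and 1.06. The 11 macrophage markers in the table summed to 21.1, 6.83 and 1035 in *Mcemp1*-/- replicates 4, 5 and 6, against 601 to 1163 in *Mcemp1*+/+ PC, and 8 and 9 of them were under 1 in replicates 4 and 5, where *Csf1r*, the M-CSF receptor, was at 0.469 and 0.375. *Nfkbia* was low in the same libraries as these 2 lists, and their part in that was not tested. The 8 eosinophil markers summed to 10.6, 11.2 and 12.8 in *Mcemp1*-/- replicates 4, 5 and 6, against 52.2, 88.3 and 140 in *Mcemp1*+/+ replicates 1, 2 and 3, low in all 3 libraries labelled *Mcemp1*-/-, replicate 6 included, and 6, 6 and 4 of them were under 1 there. *Prg2*, the eosinophil major basic protein, was at 0.134, 0.255 and 0.0806 in *Mcemp1*-/- PC, against 18.0, 33.5 and 55.9 in *Mcemp1*+/+ PC. *Il5ra*, the highest marker of this list in replicate 4, was not lower. It was at 5.56, 5.32 and 4.22 in *Mcemp1*-/- PC, against 1.60 to 4.44 in *Mcemp1*+/+ PC. The sum of this list, though not every marker in it, thus separated the libraries as *Nfkbiz* did, in the opposite direction. Its part in the *Nfkbiz* values was not tested. In bulk RNA, fewer cells of a type and less RNA per cell cannot be told apart. The 14 mast cell markers summed to 48918, 50038 and 27328 in *Mcemp1*-/- replicates 4, 5 and 6, against 25533 to 26741 in *Mcemp1*+/+ PC, so that replicates 4 and 5 were high in these markers as well as in *Rel*, *Nfkbie* and *Nfkbiz*.

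Set against that mast cell sum, a comparison chosen after the values were seen, *Nfkbiz* was still higher in every library labelled *Mcemp1*-/-. It was at 7.28, 7.15 and 9.35 per 10000 counts of mast cell markers in *Mcemp1*-/- replicates 4, 5 and 6, against 3.17, 5.24 and 4.13 in *Mcemp1*+/+ replicates 1, 2 and 3. *Rel* overlapped on that scale, at 18.9, 18.1 and 24.9 in *Mcemp1*-/- PC, against 24.1, 21.9 and 23.5 in *Mcemp1*+/+ PC, with replicates 4 and 5 below *Mcemp1*+/+ PC instead of above. *Nfkbie* overlapped likewise, at 11.2, 10.2 and 15.6 in *Mcemp1*-/- PC, against 15.5, 15.7 and 15.3 in *Mcemp1*+/+ PC. *Nfkbia* kept its order, at 1.60, 1.57 and 11.6 in *Mcemp1*-/- PC, against 6.69, 8.49 and 11.3 in *Mcemp1*+/+ PC. The steady genes *Nfkb1*, *Rela* and *Ikbkb* were well below *Mcemp1*+/+ PC in replicates 4 and 5 on this scale. *Ikbkb*, for example, was at 17.4, 16.6 and 30.1 in *Mcemp1*-/- PC, against 31.0, 32.5 and 30.4 in *Mcemp1*+/+ PC. Replicate 6 was only just below for *Ikbkb* and level with the lowest *Mcemp1*+/+ library for *Rela* (both 19.50). For *Nfkb1* it was at 50.3, against 55.1 to 60.3 in *Mcemp1*+/+ PC.

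**Figure D4:**
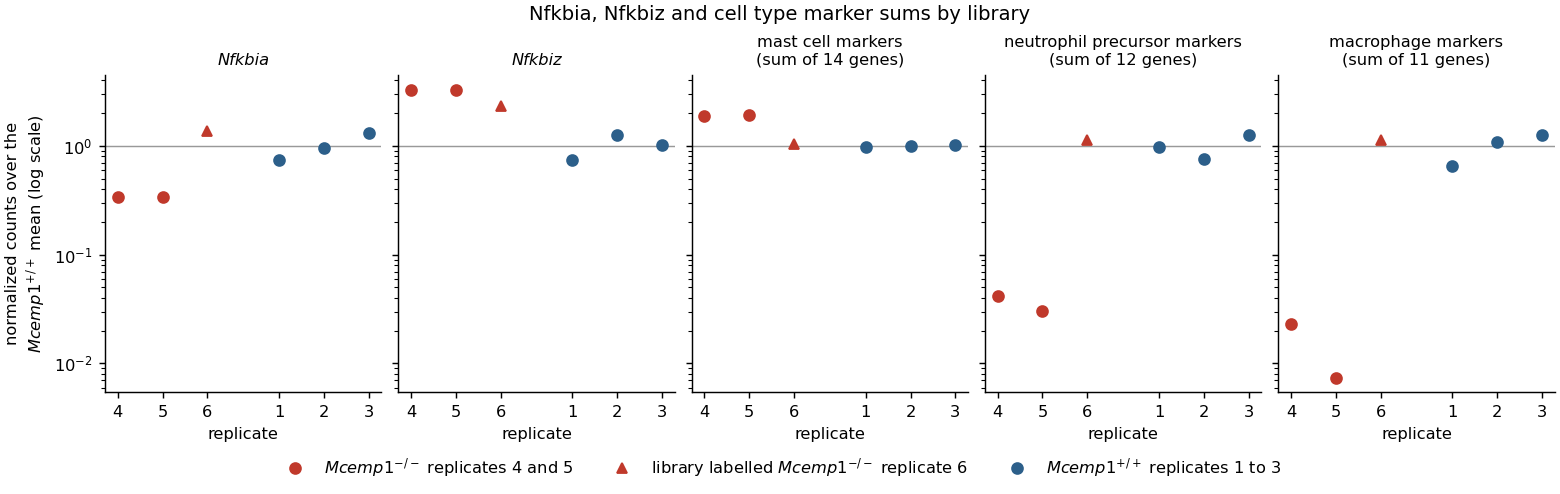
*Nfkbia*, *Nfkbiz* and the summed markers of mast cells, neutrophil precursors and macrophages in each library, as normalized counts over the *Mcemp1*+/+ mean on a shared log axis, with *Mcemp1*-/- replicates left of *Mcemp1*+/+ replicates. The macrophage sum in replicates 4 and 5 (21.1 and 6.83 normalized counts) is far below that in replicate 6 (1035), whereas *Nfkbiz* is high in all 3.

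Of 3 other IκB proteins, 0 passed with adjustment and 1 (*Nfkbid*) was higher at an unadjusted p under 0.05, beside 11.6% of all genes. Without the library labelled *Mcemp1*-/- replicate 6, *Nfkbid* was higher and 1 (*Bcl3*) was lower with adjustment. In that fit 19.4% of all genes were higher and 22.4% lower. *Nfkbid* encodes IκBNS, which like IκBζ acts in the nucleus. It had 26.6, 21.6 and 25.8 normalized counts in *Mcemp1*-/- replicates 4, 5 and 6, against 14.8, 14.3 and 14.2 in *Mcemp1*+/+ replicates 1, 2 and 3. All 3 libraries labelled *Mcemp1*-/- were above *Mcemp1*+/+ PC, replicate 6 included, although the gene did not pass over all genes (log2 fold change 0.75 ± 0.11, SE, limma adjusted p = 0.105). An upward gap as large as that of *Nfkbid* (1.46 times) was found for 73 of 13517 genes (0.54%), again looked up after the values were seen. Per 10000 counts of mast cell markers, however, *Nfkbid* overlapped between the groups (5.43, 4.31 and 9.46 in *Mcemp1*-/- PC, against 5.80, 5.50 and 5.33 in *Mcemp1*+/+ PC). *Nfkbib*, which encodes the classical inhibitor IκBβ, was level at 23.2, 21.7 and 20.6 in *Mcemp1*-/- PC, against 22.2, 21.6 and 21.0 in *Mcemp1*+/+ PC.

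Among upstream kinases and adaptors most differences were small, with *Ikbke* and *Card9* as wide exceptions in replicates 4 and 5. Of 13 genes of the IKK complex and its upstream kinases, 0 passed with adjustment and 5 had an unadjusted p under 0.05, all higher, where 11.6% of all genes tested were higher and 13.8% lower at that p. The median of the log2 fold changes in this list was 0.14. *Map3k7*, which encodes TAK1, the kinase that activates IKK, had 402, 403 and 284 normalized counts in *Mcemp1*-/- replicates 4, 5 and 6, against 251, 257 and 261 in *Mcemp1*+/+ PC (log2 fold change 0.48, adjusted p = 0.16 from limma). Its partner *Tab2* was at 364, 342 and 297 in *Mcemp1*-/- PC, against 275, 274 and 267 in *Mcemp1*+/+ PC (log2 fold change 0.29, adjusted p = 0.155), so replicate 6 was above *Mcemp1*+/+ PC for both. By contrast *Ikbke*, an IKK-related kinase named after its values were seen, was at 17.7, 18.8 and 129 in *Mcemp1*-/- PC, against 106, 89.2 and 126 in *Mcemp1*+/+ PC, low in the 2 libraries with few neutrophil precursor and macrophage transcripts, whose part in this was not tested.

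Of 16 adaptors and ubiquitin ligases, 0 passed with adjustment and 1 was higher and 0 lower at an unadjusted p under 0.05, beside 11.6% and 13.8% of all genes (median log2 fold change 0.019). *Malt1*, the paracaspase of the CARD-BCL10-MALT1 complex, had 172, 196 and 119 normalized counts in *Mcemp1*-/- replicates 4, 5 and 6, against 133, 105 and 93.8 in *Mcemp1*+/+ replicates 1, 2 and 3, with overlap. *Traf6*, a ubiquitin ligase of the Toll-like and IL-1 receptor pathways, was at 91.1, 83.7 and 80.5 in *Mcemp1*-/- PC, against 82.1, 77.3 and 80.0 in *Mcemp1*+/+ PC. *Card9*, a myeloid adaptor named after its values were seen, was at 1.61, 0.977 and 47.3 in *Mcemp1*-/- PC, against 45.6, 36.6 and 47.7 in *Mcemp1*+/+ PC.

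Among 19 deubiquitinases and other brakes on the pathway, 0 passed with adjustment, and 4 were higher and 1 lower at an unadjusted p under 0.05, beside 11.6% and 13.8% of all genes (median log2 fold change 0.11). *Tax1bp1* and *Itch*, whose products work with A20, were both higher than in any *Mcemp1*+/+ library. Neither these genes nor *Map3k7* and *Tab2* were set against the mast cell sum, on which *Rel* and *Nfkbie* overlapped. *Tax1bp1* had 591, 603 and 509 normalized counts in *Mcemp1*-/- replicates 4, 5 and 6, against 486, 435 and 422 in *Mcemp1*+/+ PC (log2 fold change 0.34, adjusted p = 0.15 from limma). *Itch* was at 285, 287 and 228 in *Mcemp1*-/- PC, against 206, 205 and 219 in *Mcemp1*+/+ PC (log2 fold change 0.34, adjusted p = 0.16 from limma). *Irak3*, an inhibitor of Toll-like receptor signaling that was named after its values were seen, was at 4.35, 4.33 and 37.4 in *Mcemp1*-/- PC, against 33.0, 33.7 and 43.6 in *Mcemp1*+/+ PC.

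Known target genes of NF-κB lay on both sides of the controls. Of 30 on the list, 24 could be tested. Of these 0 passed with adjustment, 6 were higher and 2 lower at an unadjusted p under 0.05, beside 11.6% and 13.8% of all genes, and the median log2 fold change was -0.019. *Ier3*, an early response gene, had 579, 534 and 296 normalized counts in *Mcemp1*-/- replicates 4, 5 and 6, against 189, 187 and 186 in *Mcemp1*+/+ replicates 1, 2 and 3 (log2 fold change 1.27 ± 0.25, SE, limma adjusted p = 0.15). *Ccl2*, a chemokine for monocytes, was at 255, 220 and 143 in *Mcemp1*-/- PC, against 114, 107 and 113 in *Mcemp1*+/+ PC (log2 fold change 0.85, adjusted p = 0.15). The groups did not overlap for either. The cytokine genes *Tnf* and *Il6*, named after their values were seen, were also above *Mcemp1*+/+ PC in all 3 libraries. *Tnf* was at 33.7, 23.2 and 23.4 in *Mcemp1*-/- PC, against 11.9, 10.3 and 10.7 in *Mcemp1*+/+ PC (log2 fold change 1.23 ± 0.17, SE, limma adjusted p = 0.098), and *Il6* was at 29.2, 32.7 and 15.9 in *Mcemp1*-/- PC, against 12.1, 11.98 and 12.99 in *Mcemp1*+/+ PC (log2 fold change 0.98, adjusted p = 0.15). Per 10000 counts of mast cell markers, *Tnf* overlapped between the groups, at 6.88, 4.63 and 8.57 in *Mcemp1*-/- PC, against 4.65, 3.96 and 3.98 in *Mcemp1*+/+ PC. *Ccl2* overlapped as well, at 52.1, 44.0 and 52.3 in *Mcemp1*-/- PC, against 44.5, 40.9 and 42.2 in *Mcemp1*+/+ PC. *Ier3* did not overlap on that scale, at 118, 107 and 108 in *Mcemp1*-/- PC, against 73.9, 71.8 and 69.4 in *Mcemp1*+/+ PC. *Il6* was not set against the mast cell sum.

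The 2 targets lower at an unadjusted p under 0.05 were *Gadd45b* and *Irf1*. *Gadd45b* was at 1.27, 1.32 and 7.54 in *Mcemp1*-/- PC, against 11.1, 8.91 and 8.89 in *Mcemp1*+/+ PC (log2 fold change -1.78, adjusted p = 0.17 from limma). It was below every *Mcemp1*+/+ library in all 3, replicate 6 included. *Irf1* was at 16.4, 14.9 and 21.2 in *Mcemp1*-/- PC, against 20.6, 27.9 and 26.7 in *Mcemp1*+/+ PC, with overlap. *Vcam1* and *Il1b* were low where the macrophage markers were low. *Vcam1*, an adhesion molecule, had 0.160, 0.272 and 18.3 normalized counts in *Mcemp1*-/- replicates 4, 5 and 6, against 6.78, 9.68 and 27.0 in *Mcemp1*+/+ PC, and *Il1b* was at 0.536, 0.340 and 8.95 in *Mcemp1*-/- PC, against 1.24, 5.69 and 5.87 in *Mcemp1*+/+ PC. Without the library labelled *Mcemp1*-/- replicate 6, 8 target genes were higher and 6 lower of 23 tested, beside 19.4% and 22.4% of all genes. In the same fit 5 kinases were higher and 2 lower of 13, 3 adaptors each way of 16, and 7 brakes higher and 4 lower of 19. *Gadd45b*, *Irf1*, *Vcam1* and *Il1b* were named after their values were seen.

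**Figure D5:**
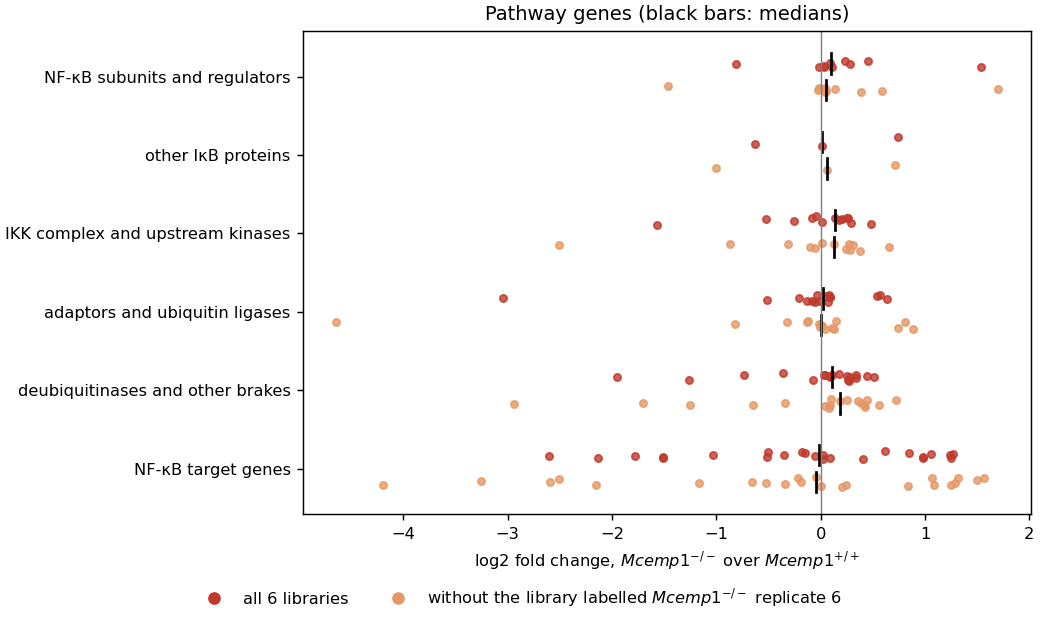
Log2 fold changes of *Mcemp1*-/- PC over *Mcemp1*+/+ PC (horizontal axis) for each tested gene of the NF-κB subunits and regulators and of 5 lists of pathway genes, with all 6 libraries and without the library labelled *Mcemp1*-/- replicate 6, and black bars for the medians. The medians lie near 0 (-0.019 to 0.14 with all libraries), while several single genes lie further from 0 when replicate 6 is left out.

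The genes whose pattern over the 6 libraries was nearest to each variable member were found by the root mean square difference between log2 profiles centred on their means, among genes whose mean was 5 or more, leaving out gene models without a name. For *Nfkbia* they were *Lyst*, *Rnf144b* and *Rdh12*, at 0.13, 0.13 and 0.17. *Lyst*, for example, had 40.6, 34.1 and 176 normalized counts in *Mcemp1*-/- replicates 4, 5 and 6, against 88.9, 115 and 154 in *Mcemp1*+/+ replicates 1, 2 and 3. For *Nfkbiz* they were *Zmat4*, *Junb* and *Ahnak2*, at 0.14, 0.17 and 0.17. *Junb*, which encodes an AP-1 subunit, was at 159, 140 and 101 in *Mcemp1*-/- PC, against 42.8, 50.1 and 42.4 in *Mcemp1*+/+ PC, with all 3 libraries labelled *Mcemp1*-/- above *Mcemp1*+/+ PC. For *Tnfaip3* they were *Cemip2*, *Sfi1* and *Trp53inp1*, at 0.13, 0.16 and 0.17, each with its highest value in replicate 6. The likeness is a description over 6 libraries.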

How the data were processed

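RNA was extracted and made into mRNA libraries by the authors, sequenced on an Illumina NextSeq and processed in Partek Flow, with mm10 named in the submitters' processing notes. The values deposited by the authors are normalized counts per gene, not pooled, on a scale close to CPM. The aligner, the normalization method and any filter are not stated in the sources used here. Of low values, 39.7% to 50.5% were whole multiples of a library's lowest (within 0.01, up to 20 multiples), so reads were not recovered and no count model was run. Gene starts equal those of GENCODE vM21 for 97.4% of genes. Two-sided tests were run on the 13517 genes whose mean reached 1 CPM, with limma 3.58.1 in R 4.3.3 (eBayes with a trend) on log2(value + 0.479), a scale that understates the change of low genes, with Benjamini-Hochberg adjustment over all of them. The script was tested on simulated data. The alternatives tried were pseudocounts of 0.1 and 2 CPM, a mean minimum of 5 CPM or none, trimmed mean (TMM) scaling, no trend, a term for *Xist* and each library left out. Named genes were the 10 genes, the highest 2 of each pathway list, 1 of the highest 2 of each marker list described, and the nearest 3 profiles of genes with a range of at least 2 times. *Mcemp1*, *Xist*, *Psd*, AC114539.1, *Ctsg*, *Il5ra*, *Bcl3* and the genes marked as named after their values were seen were added to these. Marker lists for basophils, B cells, T and NK cells, and fibroblasts and mesothelial cells were summed too and are not described here. The genes and lists were chosen with earlier results of these data known. Promoter sequences are from RefSeq (GRCm38.p6). Figures were drawn with matplotlib 3.10.9.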

Additional observations from a re-analysis of the deposited data

Results flagged for a closer look

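For *Nfkbia* and *Rel* the difference between *Mcemp1*-/- PC and *Mcemp1*+/+ PC in the libraries with *Xist* was set against that in the libraries without it, as an interaction term in limma. The side with *Xist* is 1 library against 1, so the standard errors and p-values take their spread from the other 4 libraries and assume that replicate 6 and *Mcemp1*+/+ replicate 3 vary as those do. For *Nfkbia* the interaction was 1.33 on the log2 scale (standard error 0.24, adjusted p = 0.027 from limma), since the difference was 0.076 between replicate 6 and *Mcemp1*+/+ replicate 3 and -1.26 between replicates 4 and 5 and *Mcemp1*+/+ replicates 1 and 2. For *Rel* it was -0.50 (standard error 0.11, adjusted p = 0.043 from limma), with differences of 0.12 and 0.62. These are 2 of the 10 genes, beside 14.3% of all genes tested that passed the same test. The *Mcemp1*-/- library with *Xist* is replicate 6, so sex and that library cannot be told apart.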

How the results depend on the processing

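With all libraries kept, none of the 10 genes passed the adjusted threshold under any alternative. The direction of *Rel*, *Nfkbia*, *Nfkbie* and *Nfkbiz* held under all 13 alternatives, with log2 fold changes of 1.35 to 1.71 for *Nfkbiz*, 0.37 to 0.59 for *Rel*, 0.20 to 0.39 for *Nfkbie* and -1.46 to -0.49 for *Nfkbia*. The log2 fold changes of *Rela* (0.0016 to 0.14), *Relb* (0.011 to 0.21) and *Ikbkb* (0.0090 to 0.057) kept their sign but came close to 0. Those of *Nfkb1* (0.053 without *Mcemp1*-/- replicate 6 and 0.011 without *Mcemp1*+/+ replicate 2), *Nfkb2* (-0.029 without *Mcemp1*-/- replicate 6 and -0.040 without *Mcemp1*+/+ replicate 1) and *Tnfaip3* (-0.012 without *Mcemp1*-/- replicate 6) changed sign near 0, over ranges with 1 library left out of -0.064 to 0.053, -0.040 to 0.12 and -0.012 to 0.42. Leaving out 1 library at a time gave 0 to 4 of the 10 genes, 0 to 40 pathway genes, and 0 to 3021 lower and 0 to 2623 higher genes of all tested, with the highest counts in each case without the library labelled *Mcemp1*-/- replicate 6, against 0, 0, 8 and 2 with all libraries. At an unadjusted p under 0.05 the counts were 3, 20, 1863 and 1566. A pseudocount of 2 CPM gave 5 lower genes and the *Xist* term 6 higher genes, and the cause was not tested. No paired analysis was possible because the labels give no replicate number shared by the groups. Read depth is not known, so counting error cannot be given for the lower genes such as *Relb* and *Nfkbiz*.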
